A study of Mus musculus with 12 samples.

Results

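Expression was measured in 12 single mouse morulae, and the genes described here were 10 trophectoderm regulators and keratins of 19038 features tested: Tead4, Cdx2, Eomes, Gata3, Elf5, Tfap2a, Tfap2c, Id2, Krt8 and Krt18. The members were chosen by name, as genes that mark or build the outer lineage of the embryo, with earlier results of these data known. All 13 probes whose RefSeq accession mapped to those symbols were taken. There were 4 embryos in each of 3 classes. The siXist class held cloned embryos made by transfer of a Sertoli cell nucleus and injected with siRNA against Xist 6 to 7 h after activation. The siCont class held Sertoli cell clones given a control siRNA at the same stage, and the IVF class held fertilised embryos, 2 female and 2 male, that were not described as injected. All embryos were (C57BL/6 x DBA/2) F1, all clones were male, and all were cultured in KSOM medium for 72 h from activation. Each array held the RNA of a whole embryo amplified in a pair of rounds, so the cells of a morula were not resolved. Each class lay on a slide and a scan of its own, so that in comparisons of classes the class and its slide cannot be told apart. Only female against male IVF embryos lay within 1 slide.

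The trophectoderm is the first epithelium of the mouse embryo and gives rise to the placenta. In the outer cells of the morula the DNA-binding factor TEAD4 works with the coactivator YAP to turn on Cdx2, while GATA3 acts in parallel under the same control. CDX2 then keeps the lineage, in part by holding down pluripotency genes such as Pou5f1, and EOMES and ELF5 sustain trophoblast stem cells later on. The AP-2 factors TFAP2C and TFAP2A bind many trophoblast genes. Keratins 8 and 18 pair in the intermediate filaments of the outer cells, and Id2 encodes an inhibitor of basic helix-loop-helix factors that is enriched in outer cells.

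Promoter sequence was held for 8 of the 10 members in RefSeq for build GRCm38.p6, as 250 bases before to 50 after a start site, and 10 promoters were searched on both strands for the letters GGAATG (the core of TEAD sites), GCCNNNGGC (the AP-2 palindrome) and AGATAA, which GATA factors bind. The motifs do not share letters at the matches found. The AP-2 palindrome stood in 3 of the 10 member promoters (Cdx2, Gata3 and Krt18) and in 16.6% of 32851 mouse promoters of this length. G and C made up 57.3, 67.3 and 61.3% of the bases in those promoters, against a median of 52.7% over all. The part of base content in the count was not tested. The TEAD core stood in 1 (Elf5) and in 14.7% of all, and the GATA core in 1 (Krt8) and in 11.2% of all. The promoters of Cdx2 (chr5:147307200-147307499, minus strand), Gata3 (chr2:9878551-9878850, minus strand) and Eomes (chr9:118477939-118478238, plus strand) are shown because Eomes is the member that passed the test, and Cdx2 and Gata3 were lowest in the same 2 siCont clones. Capitals mark the AP-2 palindrome, which begins 16 bases before the start of Cdx2 and 246, 231 and 221 bases before the start of Gata3. The Eomes window holds none of the searched letters.
Cdx2: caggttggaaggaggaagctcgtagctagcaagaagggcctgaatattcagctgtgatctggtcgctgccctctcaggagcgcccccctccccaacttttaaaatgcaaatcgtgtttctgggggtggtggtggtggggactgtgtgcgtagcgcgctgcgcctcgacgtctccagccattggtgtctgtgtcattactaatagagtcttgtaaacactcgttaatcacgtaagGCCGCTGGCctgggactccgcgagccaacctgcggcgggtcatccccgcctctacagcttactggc
Gata3: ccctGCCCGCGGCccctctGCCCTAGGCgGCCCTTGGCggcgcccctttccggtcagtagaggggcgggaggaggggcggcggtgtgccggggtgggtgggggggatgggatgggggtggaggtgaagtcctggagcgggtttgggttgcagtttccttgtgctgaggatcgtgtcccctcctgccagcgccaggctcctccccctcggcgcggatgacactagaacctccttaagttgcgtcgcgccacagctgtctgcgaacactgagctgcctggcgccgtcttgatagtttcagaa
Eomes: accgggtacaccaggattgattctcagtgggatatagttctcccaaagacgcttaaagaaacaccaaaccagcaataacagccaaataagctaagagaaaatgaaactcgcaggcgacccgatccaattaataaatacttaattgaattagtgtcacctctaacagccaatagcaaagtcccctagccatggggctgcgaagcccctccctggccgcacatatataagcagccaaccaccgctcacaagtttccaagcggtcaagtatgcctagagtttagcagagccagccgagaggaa

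Levels are log2 processed signal relative to the 75th percentile of the array, so 0 is the brightness of the 75th percentile and each unit is a doubling, and levels of different probes are not set against each other. That percentile signal ran from 507.1 to 1133.2 over the arrays, 50.8 to 61.5% of probes were well above background, and 0 spots were saturated. Differences were tested with limma over all 12 arrays, with Benjamini-Hochberg adjustment over all features at a threshold of 0.05. The number of arrays limits the precision. Xist, the siRNA target, had mean levels of 1.93 in siXist clones and 4.97 in siCont clones on its brightest probe (difference -3.04 ± 0.48 (SE), adjusted p = 0.110, limma), and the 2 classes did not overlap. Its other 3 kept probes did not give 1 direction: their differences were -2.90 ± 1.36, 0.04 ± 2.02 and 3.97 ± 2.44 (adjusted p = 0.398, 0.996 and 0.488, limma over all kept probes). Of the 4 probes, 0 passed the test, and at an unadjusted p under 0.05 the brightest was the 1 that did.

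Eomes was the member with the clearest difference between clones and fertilised embryos. Its levels were -6.17, -8.19, -8.59 and -5.67 in siXist clones 1 to 4, -6.75, -8.04, -7.32 and -3.54 in siCont clones 1 to 4, and -0.45, -1.48, -1.13 and -1.69 in IVF embryos 1 to 4. All 4 IVF embryos were above background and above every clone, whereas the probe was above background in 1 of 4 siXist clones and in 1 of 4 siCont clones. It therefore met the filter through the IVF class alone, and its higher level there is not independent of that filter. Eomes fell in siXist clones relative to IVF embryos, by at least 33.9-fold when dim arrays were set to the lowest measurable signal (measured difference -5.97 ± 0.98 on the log2 scale, adjusted p = 0.0318, limma). Over the siCont clones the difference from IVF embryos was -5.23 ± 0.98 (at least 18.1-fold), with an adjusted p of 0.0600 in the same fit. With the 8 clones in 1 group, a contrast added after the values were seen, it was -5.60 ± 0.85 (at least 24.8-fold, adjusted p = 0.0177, limma). The siXist and siCont clones differed by -0.74 ± 0.98, mostly below background on both sides. In a whole embryo, fewer cells of a type and less RNA per cell cannot be told apart.

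The size of the Eomes difference changed little when single arrays were left out, whereas its call was lost without some of them. Without siXist clone 2 or 3, or any 1 of the IVF embryos, the difference of siXist clones from IVF embryos lay between -6.14 and -5.49, with an adjusted p between 0.0792 and 0.121. The call was also missed against the male IVF embryos alone (-6.37, adjusted p = 0.119) and when the fit was run on the authors' deposited table (-5.93, adjusted p = 0.0743). Without siCont clone 4, whose Eomes level was the highest among the clones, the difference between siCont clones and IVF embryos was -6.18 with an adjusted p of 0.0171. Of markers of the other embryonic lineages, 0 of 6 pluripotency and 0 of 4 primitive endoderm markers tested passed in any contrast (limma). At an unadjusted p under 0.05 (limma), 3 of the 6 pluripotency and 1 of the 4 primitive endoderm markers were lower in siCont clones than in IVF embryos. Of all features 6.73% were. In siXist clones 2 pluripotency and 2 primitive endoderm markers were lower than in IVF embryos. For that contrast, with outlier spots kept, 2652 of 19045 features reached this p in either direction. The summed signal of 6 primitive endoderm markers ran from 61.0 to 102 times the 75th percentile signal in siXist clones, from 54.6 to 108 in siCont clones and from 129 to 171 in IVF embryos, so clones and IVF embryos did not overlap. Most of that signal was Gata6, at log2 levels of 5.92 to 6.65, 5.73 to 6.71 and 6.96 to 7.27 in the same order. The lack of overlap of the sum thus describes mainly 1 gene, and 2.33% of all features were lower in every clone than in every IVF embryo. The same sum over the 6 pluripotency markers with a probe ran from 54.9 to 177 in siXist clones, from 103 to 232 in siCont clones and from 167 to 194 in IVF embryos, with overlap. Sox2, a defining marker of the inner cells, was above background in 1 of 4 siXist clones, 1 of 4 siCont clones and 4 of 4 IVF embryos. Pou5f1 was above background on all 12 arrays, and Foxa2 on none. The part of these lineages in the Eomes difference was not tested.

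Cdx2, the defining factor of the lineage, was lower in all 8 clones than in the lowest IVF embryo, and it split the siCont class. Its levels were 3.83, 3.04, 1.34 and 3.20 in siXist clones, 3.44, -2.93, -7.87 and 3.18 in siCont clones, and 4.37, 4.90, 5.13 and 4.48 in IVF embryos. The siCont clone 3 was not above background, clone 2 was low but above it, and clones 1 and 4 stood within the range of the siXist clones. The array of siCont clone 3 had the lowest 75th percentile signal of all arrays (507.1). Its share of probes well above background was also the lowest (50.8%). The part of this low signal in the Cdx2 level of siCont clone 3 was not tested. Clones and IVF embryos did not overlap, yet no contrast passed the test. The siCont clones differed from IVF embryos by -5.77 ± 2.15 (at least 36.7-fold, adjusted p = 0.291, limma). The siXist clones differed from IVF embryos by -1.87 ± 2.15 (adjusted p = 0.712) and from siCont clones by 3.90 ± 2.15 (adjusted p = 0.428, 95% interval -0.90 to 8.70). The size of both differences that involve siCont clones depended on single clones. Without siCont clone 3 the difference of siCont clones from IVF embryos was -3.49 and that of siXist from siCont clones 1.62, and over all arrays left out in turn they ran from -7.26 to -3.49 and from 1.62 to 5.39. The fit shares 1 estimate of the spread among the classes, so the SE of siXist clones against IVF embryos also takes in the spread of siCont clones. The lowest adjusted p of Cdx2 in siXist clones against IVF embryos over the alternative fits was 0.221 (limma).

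The SD of Cdx2 was 1.06 over siXist clones, 5.42 over siCont clones and 0.36 over IVF embryos (n = 4 each). The median SD over all features was 0.72, 0.78 and 0.52 in the same order of classes, and the Cdx2 value in siCont clones was the 7th largest of 19038. No test of the difference in spread was made. Gata3, the regulator that acts beside Cdx2, varied in the same embryos: its levels were 4.18, 4.35, 4.42 and 4.01 in siXist clones, 4.84, 2.28, 1.14 and 4.19 in siCont clones, and 4.71, 4.02, 4.30 and 3.55 in IVF embryos. The siCont clones 2 and 3, lowest for Cdx2, were also lowest for Gata3, which was noticed after the values were seen. The SD of Gata3 was 0.19 over siXist clones, 1.71 over siCont clones and 0.49 over IVF embryos. The part of the low signal on the siCont clone 3 array in the SDs of Cdx2 and Gata3 was not tested. In mean level, siXist clones differed from siCont clones by 1.13 ± 0.71 (adjusted p = 0.478, limma) and from IVF embryos by 0.09 ± 0.71 (adjusted p = 0.965), and the classes overlapped.

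**Figure D1:**
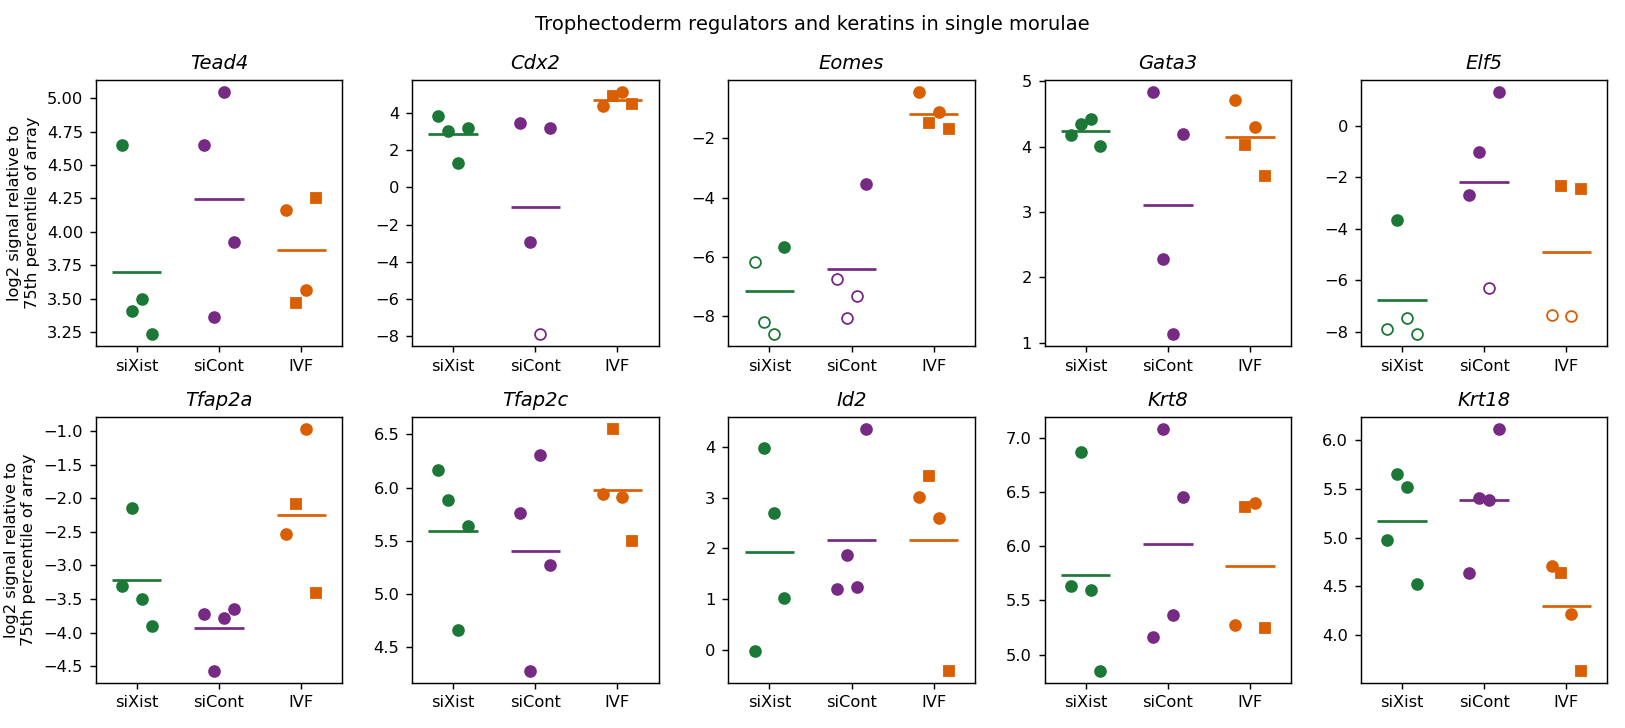
Level of each member in every embryo, as log2 signal relative to the 75th percentile of the array (y axis, scaled per gene), for siXist clones, siCont clones and IVF embryos; squares are female embryos, open symbols are not above background and bars are class means. Eomes is above background in 1 of 4 siXist clones, 1 of 4 siCont clones and 4 of 4 IVF embryos, and the Cdx2 values of siCont clones spread from -7.87 to 3.44.

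**Figure D2:**
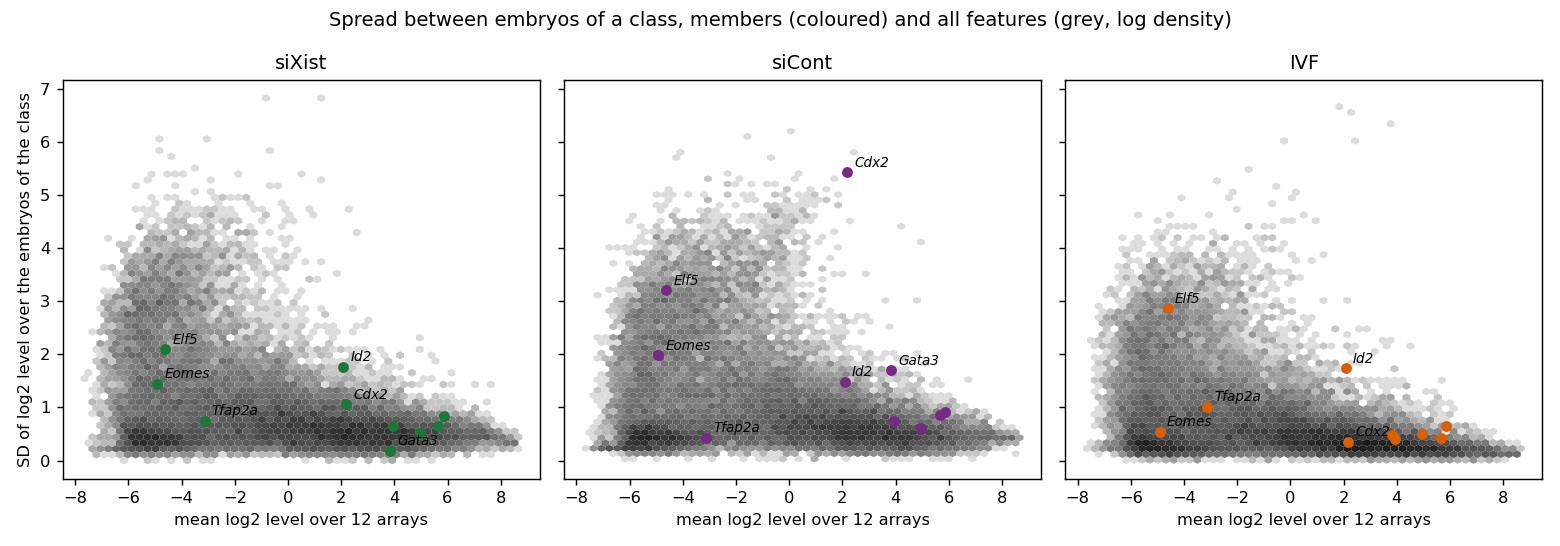
SD of the log2 level over the 4 embryos of each class (y axis) against the mean log2 level over 12 arrays (x axis), for the members (coloured points) and all 19038 features (grey, darker where more features lie); keratins, Tead4 and Tfap2c are unlabelled points at the right. Cdx2 stands at an SD of 5.42 among the siCont clones, against 1.06 in siXist clones and 0.36 in IVF embryos.

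Tead4, which stands upstream of Cdx2, was present in every embryo. Its levels were 4.65, 3.41, 3.49 and 3.24 in siXist clones, 4.65, 3.36, 5.05 and 3.92 in siCont clones, and 4.17, 3.47, 3.57 and 4.25 in IVF embryos. The siCont clone 3, in which Cdx2 was not above background, had the highest Tead4 value of the 12 embryos. The siXist clones differed from siCont clones by -0.55 ± 0.47 (adjusted p = 0.597, limma, 95% interval -1.60 to 0.50). The siXist and siCont clones differed from IVF embryos by -0.16 ± 0.47 and 0.38 ± 0.47, and the classes overlapped throughout.

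Elf5 was below or near the limit of detection in many embryos and had the largest measured difference of the members between the 2 kinds of clone, which did not pass the test. Its levels were -7.91, -3.65, -7.47 and -8.08 in siXist clones, -2.69, -1.03, -6.31 and 1.31 in siCont clones, and -7.34, -2.35, -7.39 and -2.46 in IVF embryos. It was above background in 1 of 4 siXist clones (clone 2), in 3 of 4 siCont clones and in the 2 female but neither male IVF embryo. The Elf5 probe thus entered the test through the siCont class alone, so its higher level there is not independent of the filter. The siXist clones differed from siCont clones by -4.60 on the log2 scale (95% interval -7.94 to -1.26, at least 12.7-fold lower, adjusted p = 0.297, unadjusted p = 0.0119, limma), and the classes overlapped. Female IVF embryos differed from male ones by 4.96 ± 2.12 (at least 13.6-fold, adjusted p = 0.9998, limma). Only 3 features of 19038 (0.0158%) were called between the sexes, and 0 of the 10 members were; 28.6% of all features did not overlap between 2 embryos and 2, so the lack of overlap for Elf5 was common.

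The AP-2 genes were detected in every embryo through 1 probe each. Tfap2a levels were -3.31, -2.15, -3.50 and -3.90 in siXist clones, -3.72, -4.57, -3.78 and -3.65 in siCont clones, and -2.53, -2.09, -0.97 and -3.41 in IVF embryos. All siCont clones were below all IVF embryos, by a mean of -1.68 ± 0.52 (adjusted p = 0.219, limma), while siXist clones overlapped both classes (-0.97 ± 0.52 against IVF embryos, adjusted p = 0.433). The second Tfap2a probe was above background in 1 embryo only, siXist clone 4, and was not tested. Tfap2c levels were 6.17, 5.89, 4.67 and 5.64 in siXist clones, 5.76, 4.28, 6.31 and 5.27 in siCont clones, and 5.94, 6.55, 5.91 and 5.50 in IVF embryos. The classes overlapped, and siXist clones differed from siCont clones by 0.19 ± 0.50 (95% interval -0.94 to 1.31).

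The keratins, the structural products of the epithelium, were present in every embryo, including the siCont clones with low Cdx2. Krt8 levels on the brighter of its 2 probes were 5.64, 6.87, 5.59 and 4.85 in siXist clones, 5.16, 7.08, 5.37 and 6.46 in siCont clones, and 5.28, 6.36, 6.40 and 5.25 in IVF embryos. The classes overlapped, with differences of -0.28 ± 0.59 between siXist and siCont clones, -0.08 ± 0.59 between siXist clones and IVF embryos and 0.20 ± 0.59 between siCont clones and IVF embryos. The second Krt8 probe gave -0.20 ± 0.63 between siXist and siCont clones. Krt18, which lies beside Krt8 on chromosome 15, had levels of 4.97, 5.66, 5.52 and 4.52 in siXist clones, 4.63, 5.40, 5.38 and 6.11 in siCont clones, and 4.71, 4.64, 4.21 and 3.63 in IVF embryos. The siXist and siCont clones differed from IVF embryos by 0.87 ± 0.42 (adjusted p = 0.394) and 1.08 ± 0.42 (adjusted p = 0.307, limma), with overlap between the classes; the siCont value was -0.013 in the authors' deposited table.

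Id2 varied widely within each class. Its brighter probe gave -0.02, 3.97, 2.70 and 1.03 in siXist clones, 1.21, 1.88, 1.23 and 4.35 in siCont clones, and 3.02, 3.42, 2.60 and -0.41 in IVF embryos. The siXist clones differed from siCont clones by -0.25 on this probe (95% interval -2.71 to 2.21) and by 0.76 ± 1.26 on the second probe, so the sign turned with the probe and neither value passed the test. The class means of the brighter probe lay within 0.25 of each other.

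Against these levels, the count of members past the threshold was small in each comparison. Between siXist and siCont clones 0 of 10 members were called, as were 2 of 19038 features (0.0105%). The members' median difference was -0.23 and that of all features -0.21, and no member separated the 2 classes, against 8.03% of all features. At an unadjusted p under 0.05, 1 member (Elf5) passed as lower, against 9.5% of all features. Fitted on the authors' deposited table, where the median difference of all features was 0.93, the differences of Eomes, Tead4, Krt8, Krt18 and Id2 turned positive, each at or below that median, without passing the test. Between siXist clones and IVF embryos 1 member was called (Eomes, lower), against 0.578% of all features in either direction and 0.294% lower. In that comparison 2 members, Eomes and Cdx2, were lower in every siXist clone than in every IVF embryo, against 9.58% of all features. Between siCont clones and IVF embryos 0 members were called, against 0.415% of all features. An unadjusted p under 0.05 was reached by 3 members that were lower (Eomes, Cdx2 and Tfap2a), against 6.73% of all features, and by 1 that was higher (Krt18), against 6.84%. The same 3 lower members did not overlap between siCont clones and IVF embryos, against 4.79% of all features. Both comparisons with IVF share the IVF arrays. With the 8 clones in 1 group, 0.909% of all features were called, and 0.441% were called as lower, with Eomes as the 1 member called. In that contrast 2 of 10 members, Cdx2 and Eomes, were lower in every clone than in every IVF embryo, against 2.33% of all features.

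**Figure D3:**
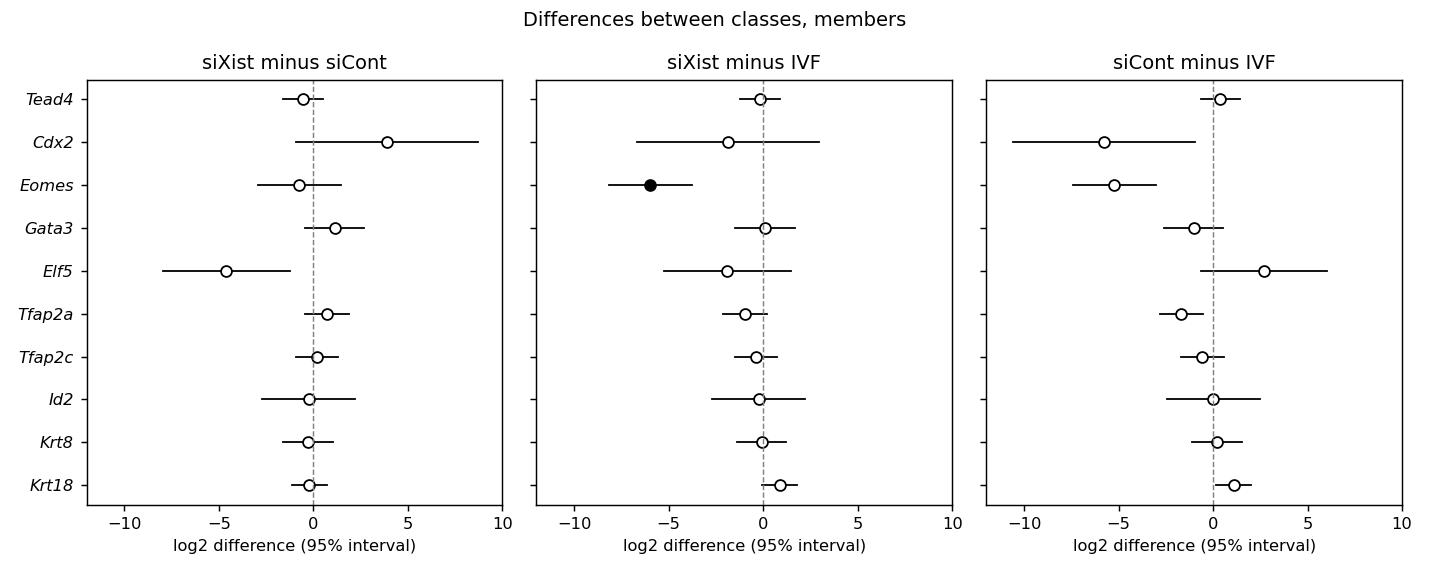
Difference in mean log2 level (x axis, points) with its 95% interval (bars) for each member in siXist minus siCont, siXist minus IVF and siCont minus IVF; the filled point passed an adjusted p under 0.05 (limma). The filled point is Eomes in siXist minus IVF (-5.97), and the widest intervals belong to Cdx2 and Elf5.

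Pairs of members named for their roles were compared across the 12 embryos, 5 pairs in all. Krt8 and Krt18, the filament partners, had a Pearson r of 0.47 (permutation p = 0.124, adjusted p = 0.309) and a Spearman rho of 0.61 (permutation p = 0.0405, adjusted p = 0.101), and r was 0.31 without the 2 embryos farthest from the median Krt8 level. With class means removed r was 0.60 (permutation p within classes 0.0731, adjusted p = 0.365). Tead4 had an r of -0.32 with Cdx2 (permutation p = 0.342, adjusted p = 0.417) and of -0.27 with Gata3 (p = 0.417, adjusted p = 0.417), and Tfap2c had an r of -0.26 with Krt8 (p = 0.413, adjusted p = 0.417). Their rho values were 0.08, 0.10 and -0.13, with permutation p of 0.802, 0.769 and 0.698 (adjusted p = 0.802 each). Without the 2 farthest embryos these 3 correlations were 0.38, 0.22 and 0.11, so on this scale their sign rested on those embryos. After quantile normalisation they were -0.26, -0.10 and -0.25 over all embryos, and -0.16, -0.11 and 0.23 without the 2 farthest. Cdx2 and Eomes both separated clones from IVF embryos, so no pooled value is given for that pair. With class means removed its r was 0.55 (permutation p = 0.274, adjusted p = 0.685) and its rho 0.65 (p = 0.0598, adjusted p = 0.222). Without the 2 embryos farthest from the median of Cdx2 in that form, r was 0.86, for which no p was computed. Eomes was above background in 1 of 4 siXist and 1 of 4 siCont clones. Most clone values in this pair are thus below background for Eomes.

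Of 9506 named genes detected on all 12 arrays, those whose levels followed Cdx2 most closely were Dtd2 (r = 0.97), 2310039H08Rik (r = 0.96) and Ganab (r = 0.95). For Krt8 they were Ddn (r = 0.95), Slc25a1 (r = 0.86) and Nde1 (r = 0.81), among 9505 candidates. These values describe 12 points that share arrays and scaling. The Cdx2 level was -7.87 in siCont clone 3, not above background, and -2.93 in siCont clone 2. In the other embryos it lay between 1.34 and 5.13. How far the correlations with Cdx2 rest on those siCont clones was not tested.

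Among 26 other genes, all of them tested on 1 probe each, Id1 was the gene that passed. The list held 10 other trophectoderm regulators, 10 epithelial and transport genes and 6 paralogues (relatives by sequence) of members. Id1 was listed as a paralogue. Id1, a relative of Id2 that also inhibits basic helix-loop-helix factors, rose in both kinds of clone. Its levels were 3.56, 2.08, 3.36 and 1.51 in siXist clones, 2.09, 2.37, 3.73 and 3.45 in siCont clones, and -1.15, -3.27, -2.30 and -1.24 in IVF embryos. Every clone stood above every IVF embryo. Id1 was higher by 4.62 ± 0.66 in siXist clones than in IVF embryos (adjusted p = 0.0199) and by 4.90 ± 0.66 in siCont clones than in IVF embryos (adjusted p = 0.0157, limma). The siXist and siCont clones differed by -0.28 ± 0.66. Its second probe gave 4.65 and 4.95 for the same contrasts with IVF (adjusted p = 0.0169 and 0.0146 over all kept probes, limma). Without siXist clone 3, IVF embryo 1 or IVF embryo 3 the siXist value had an adjusted p of 0.0623, 0.0510 or 0.0669, and without IVF embryo 3 the siCont value had one of 0.0733. Against male IVF embryos alone the values were 4.35 for siXist clones (adjusted p = 0.108) and 4.63 for siCont clones (adjusted p = 0.101).

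The other genes with the smallest p did not pass. Krt19, a keratin of simple epithelia, had levels of 2.45, 4.16, 2.57 and -1.44 in siXist clones, 1.38, 2.12, -0.81 and 1.79 in siCont clones, and -2.94, -4.16, -4.44 and -1.56 in IVF embryos. All 8 clones were above all 4 IVF embryos, as they were for Id1 and for 1.02% of all features, with differences from IVF of 5.21 ± 1.18 for siXist clones (adjusted p = 0.0975) and 4.39 ± 1.18 for siCont clones (adjusted p = 0.164, limma). Without siXist clone 4 the siXist value was 6.34 with an adjusted p of 0.0247. Slc2a1, a glucose transporter of the trophectoderm, averaged 5.89 over the 3 siXist clones with a usable spot, 5.29 over siCont clones and 3.48 over IVF embryos. Its differences from IVF embryos were 2.40 ± 0.65 for siXist clones (adjusted p = 0.167) and 1.81 ± 0.60 for siCont clones (adjusted p = 0.261, limma).

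Between the 2 kinds of clone, the genes of the list with the smallest p were Hand1, Tfap2b and Grhl2. Hand1, a factor of trophoblast giant cells, was measured in 1 siXist clone (1.96) because the scanner software marked the other 3 spots as uneven. The siCont clones averaged 5.92, and Hand1's place in this order rests on that 1 siXist clone, so no p is given for it. With the marked spots kept, the 4 siXist clones ran from 1.96 to 4.90 and differed from siCont clones by -2.14 ± 0.67 (adjusted p = 0.296, limma). Grhl2, a factor of epithelial junctions, differed by -0.99 ± 0.43 (adjusted p = 0.350). The brightest Tfap2b probe differed by -0.85 ± 0.30 (adjusted p = 0.310), while a second probe of it differed by 0.27 ± 0.84. By group, 0 of 10 other regulators, 0 of 10 epithelial and transport genes and 1 of 6 paralogues (Id1) were called in either contrast with IVF, and 0 of 26 between siXist and siCont clones. Of all features 0.578% were called for siXist clones against IVF, 0.415% for siCont clones against IVF and 0.0105% between the clones. These counts use 1 probe per gene. The second Tfap2b probe, kept through the IVF class alone, was called in both contrasts with IVF when every kept probe was tested. The median differences of siXist clones from IVF embryos were -0.54 for regulators, 1.09 for epithelial and transport genes and -0.25 for paralogues, against -0.23 over all features. In siCont clones against IVF embryos they were -0.18, 0.18 and 0.68 in that order, against -0.04 over all features.

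**Figure D4:**
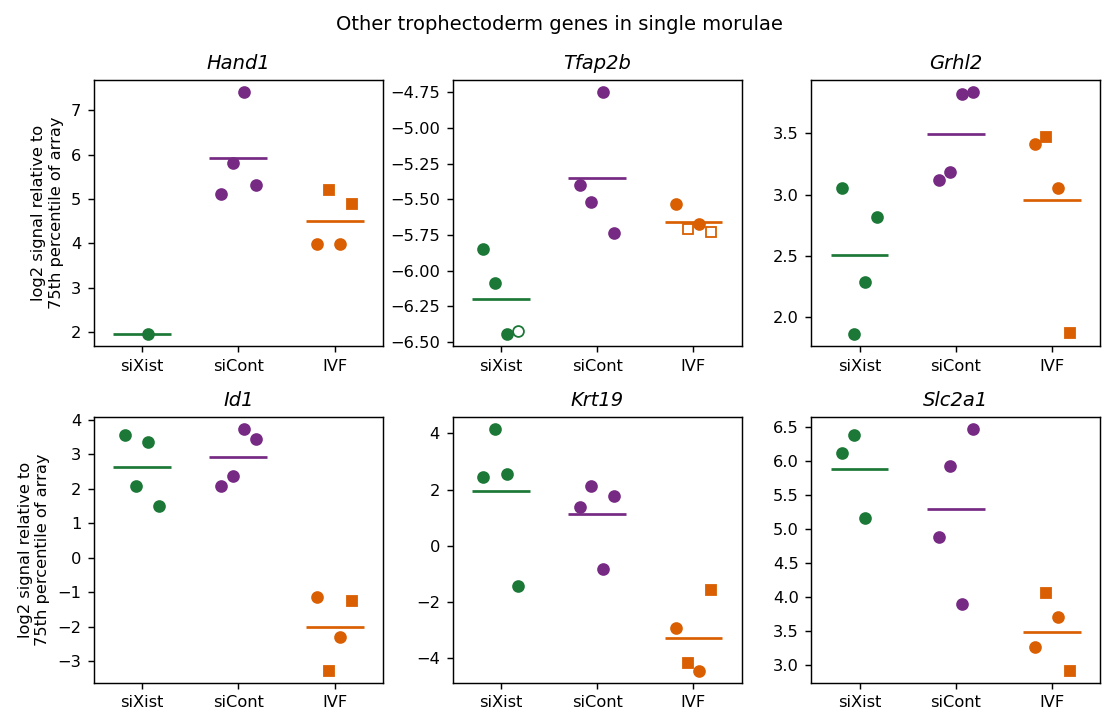
Level in every embryo of the 6 other genes named by smallest p, for siXist clones, siCont clones and IVF embryos. The genes come from the list of trophectoderm genes and paralogues of members. The y axis is log2 signal relative to the 75th percentile of the array, scaled per gene. Squares are female embryos, open symbols are not above background and bars are class means. Id1 lies between 1.51 and 3.73 in the clones and between -3.27 and -1.15 in IVF embryos.

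Some markers of cells that could be carried over were above background. Of 8 Sertoli cell markers, Dhh and Clu were above background on all 12 arrays and Amh and Inha on 0. Sox9 was above background on 2 siXist, 4 siCont and 4 IVF arrays, Cldn11 on 4, 1 and 0, Fshr on 2, 2 and 1, and Wt1 on 1, 0 and 0, in the same order of classes. These counts use 1 probe per gene. Other Sox9 probes gave 2, 1 and 4 arrays and 1, 0 and 0, and a second Inha probe gave 1, 0 and 0. The summed signal of the list ran from 0.63 to 3.75 times the 75th percentile signal in siXist clones, from 0.75 to 5.16 in siCont clones and from 1.72 to 3.97 in IVF embryos. Of 8 cumulus cell markers, Lum was above background on 0 arrays and Ptx3 on 0 siXist, 4 siCont and 1 IVF array. That Ptx3 probe had a usable spot in 3 siXist clones, and the second Ptx3 probe was above background on 0 arrays of each class. The sum over the cumulus list ran from 0.04 to 0.55, from 0.09 to 1.98 and from 0.04 to 0.09 in the same order of classes. The other 6 cumulus markers were each above background on at most 2 arrays of a class. The part of such cells in the differences was not tested.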

How the data were processed

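Single embryos were hybridised to one-colour Agilent arrays after TRIzol extraction and amplification, per the labels' protocols. Scanner intensity was deposited from Agilent Feature Extraction 10.5.1.1 with a grid on mm9, per the file headers and is corrected for background but not scaled across arrays. The authors' deposited value table is in log2 units and equals the log2 signal plus a constant per array and per probe. What that constant rests on is unknown: relative to 75th percentile scaling it put siXist arrays at 0.39, siCont arrays at -0.74 and IVF arrays at 0.35. Here log2 processed signal minus the 75th percentile of the array was used, with outlier spots left out and spots of a probe averaged. Probes entered (24840 of 41174) if 3 or more of the 4 arrays in some class were well above background; a gene took its kept probe with the highest mean. RefSeq accessions named 26888 probes (65.3%), and the table of GRCm38.p6 gave names and chromosomes only. A mean per group (siXist, siCont, female IVF, male IVF) was fitted in limma 3.58.1 under R 4.3.3 with eBayes, and IVF weights the sexes equally. "At least" folds raise values not above background to the lowest value above background on that array. The script was tested on simulated data. Members, gene lists and markers were chosen with earlier results of these data known, as were the 26 other trophectoderm genes and paralogues. Of those 26, up to 3 per contrast were named by smallest p. All 10 members were named whatever their values, and the genes most like Cdx2 and Krt8 were the 3 with the highest Pearson r. Alternatives were quantile normalisation, normexp (offset 50) with quantile normalisation, the authors' table, no filter, at least 6 arrays above background, a floor, the mean of probes, only the groups compared, sex ignored, male IVF only, the replicate number as a block, outlier spots kept, and leaving out each array. Figures used matplotlib 3.10.9 under Python 3.11.15.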

Additional observations from a re-analysis of the deposited data

Results flagged for a closer look

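Over 36 sets of 4 embryos (12 member probes in 3 classes), 3 held an embryo whose gap to its nearest neighbour, divided by the range of the 4 embryos, passed Dixon's 95% critical value of 0.829; chance gives about 1 in 20. The Tfap2a level of siCont clone 2 was -4.57, with the other siCont clones between -3.78 and -3.65 (ratio 0.865). The Elf5 level of siXist clone 2 was -3.65, with the other siXist clones, none above background, between -8.08 and -7.47 (ratio 0.862). On the second Id2 probe siCont clone 4 was at 0.10, with the other siCont clones between -4.02 and -3.60 (ratio 0.899). The brighter Id2 probe was also highest in that clone among the siCont clones, at 4.35.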

How the results depend on the processing

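Directions of Eomes, Cdx2, Tfap2a, Id1, Krt19 and Slc2a1 in the contrasts with IVF held under every alternative run. With the slide as a block no fit was run, since each class lies on 1 slide. Eomes in siCont clones against IVF embryos passed with normexp (-2.09), the authors' table (-6.32), a floor (-3.90) and sex ignored (-5.23), which made 1 member called instead of 0; its adjusted p ran from 0.0076 to 0.188 over all alternatives. Eomes in siXist clones lost its call, leaving 0 members, with the authors' table (-5.93), the replicate block (-5.97) and male IVF only (-6.37). Its adjusted p ran up to 0.121. The replicate numbers share only a number: deviations of same-numbered embryos correlated between -0.15 and 0.06. The block left 0 features called between siXist and siCont clones, 12 for siCont and 13 for siXist clones against IVF and 47 for both together, and Id1 had adjusted p of 0.0823 and 0.0801. With male IVF only Id1 was not called (4.63 in siCont, 4.35 in siXist and 4.49 in both clone classes, adjusted p = 0.101, 0.108 and 0.0615), nor was Eomes in both together (-6.00, 0 members).

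Features called between siXist and siCont clones numbered 4 under quantile normalisation, 0 under normexp, 19 in the authors' table, 4 with the floor, 5 with sex ignored and 12 with only the groups compared. Against IVF they numbered 42 (siXist) and 98 (both clone classes) in the authors' table, 45 (siCont), 51 (siXist) and 107 (both) with at least 6 arrays, and 18, 21 and 23 with male IVF only. Between the sexes they numbered 5 under normexp, 23 with no filter, 8 with the floor and 0 with only the groups compared. Leaving out 1 array gave 8 to 56 features between siXist and siCont clones, 33 to 106 for siCont and 34 to 127 for siXist clones against IVF, 56 to 177 for both, 3 to 7 between the sexes, and 0 or 1 member for each contrast with IVF. Where this left a sex of IVF with 1 embryo, that embryo was assumed to vary like the other groups.

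Small uncalled differences changed sign. For siXist minus siCont these were Krt8 (0.081), Krt18 (0.15) and Id2 (0.032) under quantile normalisation and 0.17, 0.10 and 0.071 under normexp. In the authors' table, which places siCont arrays lower, they were Eomes 0.39, Tead4 0.58, Krt8 0.85, Krt18 0.92, Id2 0.89, Tfap2b 0.28 and Grhl2 0.15, and Id2 gave 0.25 with the mean of probes. For siCont minus IVF they were Tead4 -0.71, Krt8 -0.90, Krt18 -0.013 and Id2 -1.09 in the authors' table, and Id2 -0.26 with the mean of probes and -0.64 with male IVF only. For siXist minus IVF they were Tead4 0.18, Krt8 0.30 and Id2 0.11 under quantile normalisation, 0.15, 0.37 and 0.11 under normexp, and Gata3 -0.26 and Elf5 0.59 with male IVF only. The authors' table moved the median of all features between siXist and siCont clones to 0.93 and between siCont clones and IVF embryos to -1.13, and r to 0.76 for Krt8 and Krt18, 0.68 for Tead4 and Cdx2, 0.72 for Tead4 and Gata3 and 0.46 for Tfap2c and Krt8. Leaving out 1 array moved siXist minus siCont from -1.29 to 0.21 (Eomes), -0.19 to 0.49 (Tfap2c), -0.66 to 0.074 (Krt8), -0.46 to 0.030 (Krt18) and -0.93 to 0.48 (Id2). It moved siCont minus IVF from -0.16 to 0.48 (Krt8) and -0.95 to 0.97 (Id2), and siXist minus IVF from -0.025 to 0.21 (Gata3), -0.48 to 0.032 (Tead4), -0.46 to 0.21 (Krt8) and -1.19 to 0.72 (Id2). The causes were not tested, except that fewer embryos or probes entered some fits.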

Other observations

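The kept probes of Tfap2b, an AP-2 relative of Tfap2a and Tfap2c, disagreed, as was noticed after their values were seen. The brightest probe by mean, which stood for the gene above, gave differences from IVF embryos of -0.54 ± 0.31 in siXist clones and 0.31 ± 0.31 in siCont clones (limma over all kept probes, adjusted p = 0.485 and 0.706). A second kept probe had levels from -8.74 to -4.62 in siXist clones, from -8.17 to -6.77 in siCont clones and from -3.76 to -2.11 in IVF embryos. It was above background in 1 of 4 siXist clones, 0 of 4 siCont clones and 4 of 4 IVF embryos. This probe was thus kept through the IVF class alone, so its higher level there is not independent of the filter. Its differences from IVF embryos were at least 10.1-fold for siXist clones (measured -4.67 ± 0.84, adjusted p = 0.0479) and at least 9.31-fold for siCont clones (measured -4.94 ± 0.84, adjusted p = 0.0452, limma over all kept probes, of which 0.507% and 0.387% were called in these contrasts). The remaining Tfap2b probe was above background on 0 of 12 arrays. The sequences of the probes were not used here, and which transcripts each reads was not tested.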
